A study of Homo sapiens with 6 samples.

Results

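The genes described here are those of the ATF4 stress response, also called the integrated stress response, together with the cytosolic tRNA synthetases. They are 48 named genes, chosen by symbol. There are 8 stress factors and their direct effectors, and 6 genes of eIF2 phosphorylation. The rest are 6 enzymes of serine and one-carbon metabolism, 6 other amino acid enzymes, STC2 and VLDLR-AS1, and 20 synthetases. Of the 48 genes, 46 had at least 1 probe whose annotation named that gene alone, out of 18336 such genes on the array. VLDLR-AS1 and DARS had none and are not analysed here. No filter on low values was applied, so all 46 were tested. The synthetases are written by the array's older names, so that AARS is the gene now called AARS1.

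Expression was measured in NCI-H446, a widely used line grown from a human small cell lung cancer, on single-colour Phalanx OneArray microarrays. The control group was 3 flasks that received 15 µl each of the solvent DMSO, and the drug group was 3 flasks that received a chemotherapy drug. The labels used here name neither the drug nor its dose, its exposure time or its solvent. The comparison asks which of these genes differ in level between the groups. Source names carry line numbers and DMSO volumes that climb from sample to sample, and the sample characteristics, which are the same within a group, were used.

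In this pathway, kinases that sense different stresses, such as EIF2AK3 (PERK) in the endoplasmic reticulum, EIF2AK4 (GCN2) for uncharged tRNA and EIF2AK1 (HRI) for haem shortage and mitochondrial stress, phosphorylate the initiation factor eIF2. General translation then falls while the transcription factor ATF4 is translated more, under the control of upstream open reading frames in its messenger. ATF4 binds composite C/EBP-ATF response elements, often with a C/EBP partner, and drives genes of amino acid synthesis, amino acid import and tRNA charging, as well as DDIT3 (CHOP), TRIB3 and CHAC1. Much of ATF4 control is at translation, which an array of messenger levels does not measure.

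The response element core is a short motif, TGATGNAA, searched on both strands in the 250 bases before the start site of each gene in the RefSeq promoter table of GRCh38.p14. A single listed start site was used per gene, so elements at other start sites or outside the 250 bases would be missed. A promoter was listed for 38 of the 48 genes, and 6 of the 38 held the core, against 3.19% of the 27305 promoters in the table. The following 4 promoters hold it beside genes that rose, fell or were not called, with the core in capitals. Sequences run 5′ to 3′ on the gene's own strand and end just before the start site.
CHAC1, chr15:40953221-40953470, plus strand: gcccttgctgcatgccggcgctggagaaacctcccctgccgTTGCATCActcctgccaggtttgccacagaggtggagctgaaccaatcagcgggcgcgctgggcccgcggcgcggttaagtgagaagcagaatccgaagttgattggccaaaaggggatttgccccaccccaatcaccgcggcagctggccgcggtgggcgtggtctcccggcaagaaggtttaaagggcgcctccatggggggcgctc
PPP1R15B, chr1:204411818-204412067, minus strand: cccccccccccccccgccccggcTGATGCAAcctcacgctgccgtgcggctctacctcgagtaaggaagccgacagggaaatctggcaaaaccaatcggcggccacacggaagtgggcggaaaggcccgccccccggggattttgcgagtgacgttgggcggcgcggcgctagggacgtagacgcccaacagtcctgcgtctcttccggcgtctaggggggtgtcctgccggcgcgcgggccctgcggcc
MTHFD1L, chr6:150866236-150866485, plus strand: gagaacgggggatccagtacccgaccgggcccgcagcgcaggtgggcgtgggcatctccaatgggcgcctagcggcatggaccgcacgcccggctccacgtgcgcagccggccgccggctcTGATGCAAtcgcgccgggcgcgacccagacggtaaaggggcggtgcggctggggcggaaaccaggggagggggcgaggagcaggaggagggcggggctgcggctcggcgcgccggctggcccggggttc
ASNS, chr7:97872409-97872658, minus strand: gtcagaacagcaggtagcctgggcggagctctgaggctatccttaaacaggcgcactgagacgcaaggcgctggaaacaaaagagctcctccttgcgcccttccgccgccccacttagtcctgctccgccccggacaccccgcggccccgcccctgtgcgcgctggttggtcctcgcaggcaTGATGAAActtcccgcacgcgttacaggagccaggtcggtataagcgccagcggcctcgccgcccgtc

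The core in MTHFD1L and in PPP1R15B had the same 8 letters, TGATGCAA, and in CHAC1 the reverse complement TTGCATCA, which is the same element on the other strand. ASNS held TGATGAAA, from 68 to 61 bases before the start. The other 2 promoters with a core were those of the synthetases AARS and IARS, both with TTGCATCA. A second motif, the cAMP response element TGACGTCA, was found in 1 of the 38 promoters, that of PPP1R15A, against 1.77% of the table. These matches are descriptions of the letters in a window and not of binding. Among the genes with the core, the log2 change with the drug was 1.46 for PPP1R15B, 1.22 for CHAC1, -1.33 for MTHFD1L, 0.20 for ASNS, -0.28 for AARS and 0.04 for IARS.

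Values below are log2(intensity + 1) after quantile normalization, and a change is the drug mean minus the control mean on that scale. Where several probes named a gene, the one with the highest mean stood for it. Calls were made in limma at 0.05 on p-values adjusted over all probes. Of the 46 genes, 22 were called, 14 higher and 8 lower with the drug. Over all genes tested 35.1% were called, 17.6% higher and 17.5% lower, and among the 4584 genes with the highest signal, which include 33 of the 46, 48.3% were called and 24.4% were called lower. Over all member probes 31 of 59 were called, against 31.5% of all probes. Drug and control arrays did not overlap for 30 of the 46 genes, 17 above and 13 below, where all genes gave 47%. The median change was 0.066 for the 46 genes against 0.0075 for all genes. The median absolute change was 0.70 for the 27 genes other than synthetases, 0.26 for the 19 synthetases and 0.33 for all genes. At least 2-fold changes were called in 9 of the 46, where all genes gave 15.7%, 8.02% higher and 7.68% lower. The calls were uneven between roles: 8 of 8 stress factors and effectors, 4 of 6 eIF2 genes, 3 of 6 serine and one-carbon genes, 3 of 6 other amino acid enzymes, 0 of 1 secreted gene and 4 of 19 synthetases.

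**Figure D1:**
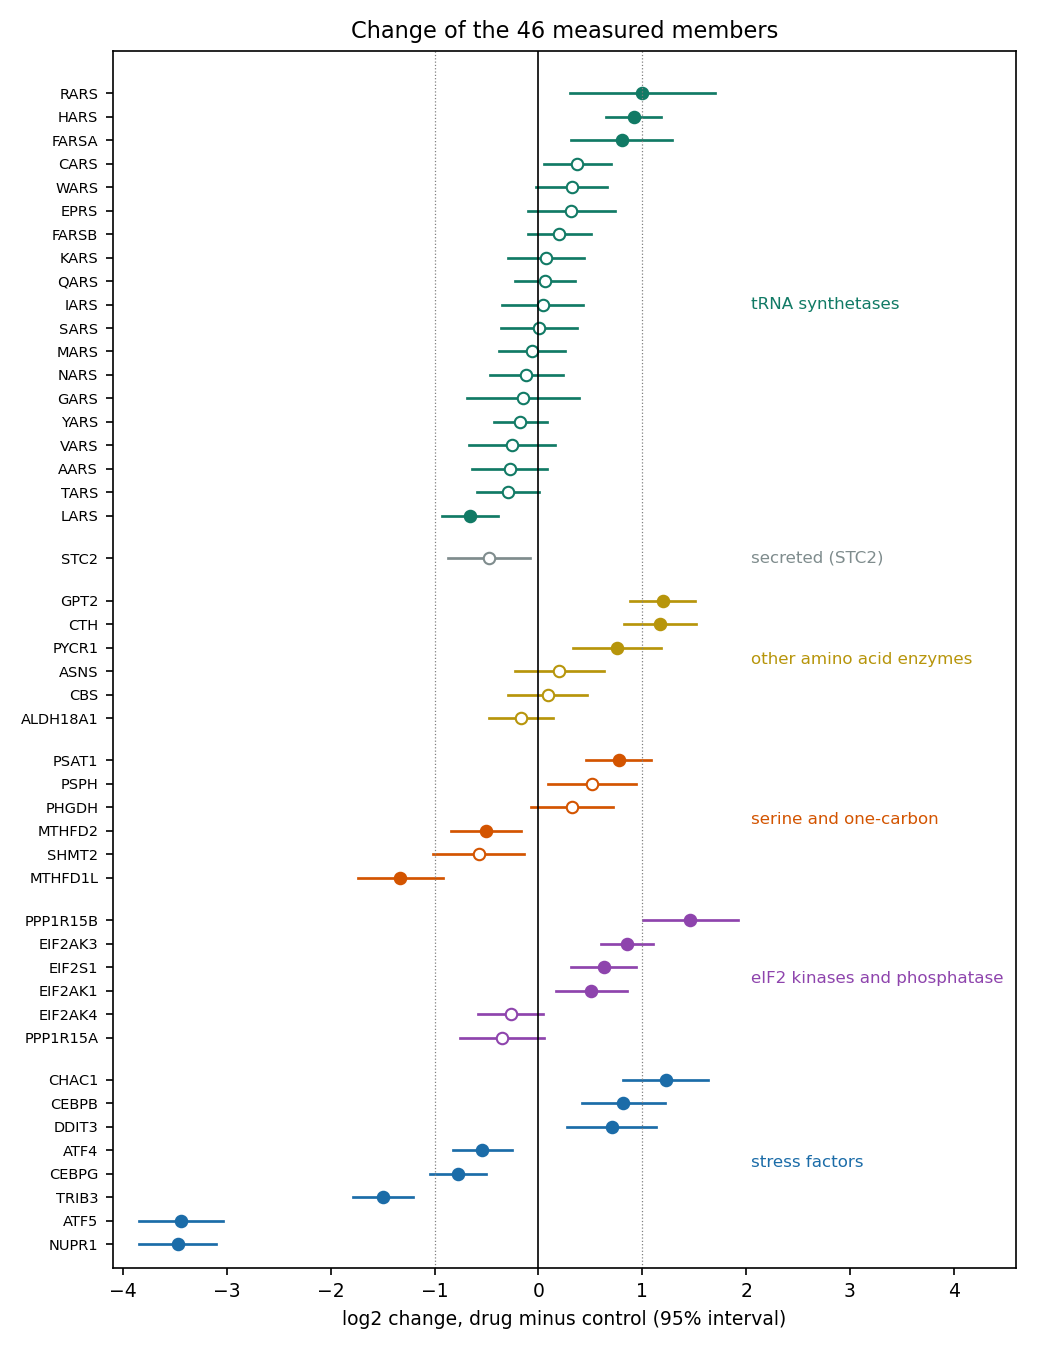
Log2 change of each of the 46 measured genes, drug minus control, with its 95% interval from limma, grouped by role; filled points passed an adjusted p of 0.05, open points did not, and dotted lines mark 2-fold. NUPR1 and ATF5 lie far to the left of all the others, and the synthetases cluster around 0 apart from LARS below and FARSA, HARS and RARS above.

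The control and drug arrays had median deposited intensities of 376 to 439 and 421 to 476. Arrays correlated at 0.978 to 0.990 within a group and at 0.948 to 0.958 between groups. Of 11 small cell lung cancer markers measured, NCAM1, ENO2 and SYP rose, YAP1 fell and 7 were not called, with changes of 5.08 for NCAM1 and -2.48 for YAP1. Their summed intensity was 31038 to 35867 in the control and 26766 to 31030 in the drug arrays, and without YAP1 it was 11931 to 16004 in the control and 23519 to 27477 in the drug arrays. NEUROD1 was dim in both groups, meaning a mean below the lower quartile of all values. That quartile was 6.86, and the control means of SYP and NCAM1, 6.92 and 7.20, lay not far above it. With 50 added to the intensity their changes were 0.83 and 4.67. Of 10 fibroblast and endothelial markers, KDR rose by 1.37, COL1A1 changed by -2.12, 2 were dim in both groups, and the summed intensity was 31278 to 33464 in the control and 9708 to 10325 in the drug arrays. Most of that sum was COL1A1, and the other 9 markers summed to 2943 to 3410 in the control and 3385 to 3765 in the drug arrays. Of 8 blood cell markers, HBA1 and CD14 rose, by 1.77 and 0.76, 4 were dim in both groups, and the sum was 3434 to 3713 and 6499 to 6780, and without HBA1 it was 2706 to 3096 in the control and 4238 to 4460 in the drug arrays. The part of these markers in the results below was not tested. In such bulk samples, fewer cells of a kind and less RNA per cell cannot be told apart.

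Among the stress factors, the 2 largest changes were falls of factors other than ATF4 itself. NUPR1, a small stress-induced chromatin protein, read 15.55, 15.70 and 15.81 in control 2, 5 and 6 and 12.34, 12.37 and 11.93 in drug 1, 3 and 4. ATF5 is a relative of ATF4 whose translation is also controlled by upstream open reading frames. It read 11.87, 11.75 and 12.13 in control 2, 5 and 6 and 8.68, 8.56 and 8.19 in drug 1, 3 and 4. In both genes each drug array lay more than 3 log2 units below each control array. NUPR1 fell from 15.69 ± 0.13 to 12.21 ± 0.24 (mean ± SD, n = 3 each), a change of -3.48 (SE 0.159, adjusted p = 1.91e-05) or 11.1-fold, and ATF5 from 11.92 ± 0.19 to 8.48 ± 0.25 (mean ± SD, n = 3 each), a change of -3.44 (SE 0.173, adjusted p = 2.47e-05) or 10.9-fold. Among the 18336 genes these were the changes at ranks 20 and 23 from the lowest. Each kept its call under all 15 alternatives, within -3.66 to -3.34 for NUPR1 and -3.56 to -3.27 for ATF5. Both genes had 1 probe, so the alternatives on the choice of probe could not alter their changes.

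ATF4 itself was lower on the brighter of its 2 probes, with 15.54, 15.49 and 15.30 in control 2, 5 and 6 and 14.97, 14.86 and 14.88 in drug 1, 3 and 4. The groups did not overlap, and the change was -0.54 (SE 0.121, adjusted p = 0.0123), or 1.46-fold. Its other probe read 9.33, 9.67 and 9.35 in control 2, 5 and 6 and 9.63, 9.32 and 9.44 in drug 1, 3 and 4, which overlapped, with a change of 0.0158 (adjusted p = 0.957). The mean of both probes gave -0.26 and was not called (adjusted p = 0.131), and without drug 3 the brighter probe gave an adjusted p of 0.0594. The lower ATF4 level therefore rests on 1 of its probes.

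The 2 C/EBP factors that pair with ATF4 were called in opposite directions. CEBPB, which also acts in inflammation and growth, rose from 14.33 ± 0.31 to 15.14 ± 0.021 (mean ± SD, n = 3 each), a change of 0.82 (SE 0.17, adjusted p = 0.00895). CEBPG, a partner that lacks an activation domain of its own, fell from 9.91 ± 0.095 to 9.14 ± 0.055 (mean ± SD, n = 3 each), a change of -0.78 (SE 0.115, adjusted p = 0.00188). The drug and control arrays were separate in both genes. CEBPG kept its call under every alternative run, and CEBPB lost it with median centring alone (adjusted p = 0.0861).

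The effectors downstream of ATF4 were split as well. DDIT3, the pro-death factor CHOP, read 14.56, 14.64 and 15.11 in control 2, 5 and 6 and 15.52, 15.29 and 15.62 in drug 1, 3 and 4. It was higher in each drug array than in each control array, by 0.70 (SE 0.181, adjusted p = 0.0223), with control 6 the control array nearest to them. The call of DDIT3 was lost without control 2, control 5, drug 1 or drug 4 (adjusted p from 0.0601 to 0.0782), and with median centring (adjusted p = 0.0960). TRIB3, a pseudokinase that DDIT3 and ATF4 induce and that restrains ATF4, went the other way, with 11.60, 11.74 and 11.53 in control 2, 5 and 6 and 10.21, 10.15 and 10.02 in drug 1, 3 and 4. It fell by 1.50 on the log2 scale (SE 0.123, adjusted p = 0.000146), and its second probe changed by -1.54 (SE 0.16, adjusted p = 0.000403). CHAC1, which degrades glutathione, read 7.96, 8.50 and 8.47 in control 2, 5 and 6 and 9.57, 9.61 and 9.42 in drug 1, 3 and 4, a rise of 1.22 (SE 0.174, adjusted p = 0.00158). Both TRIB3 and CHAC1 kept their direction and call under every alternative, so the 2 effectors were called in opposite directions in the same 6 arrays.

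**Figure D2:**
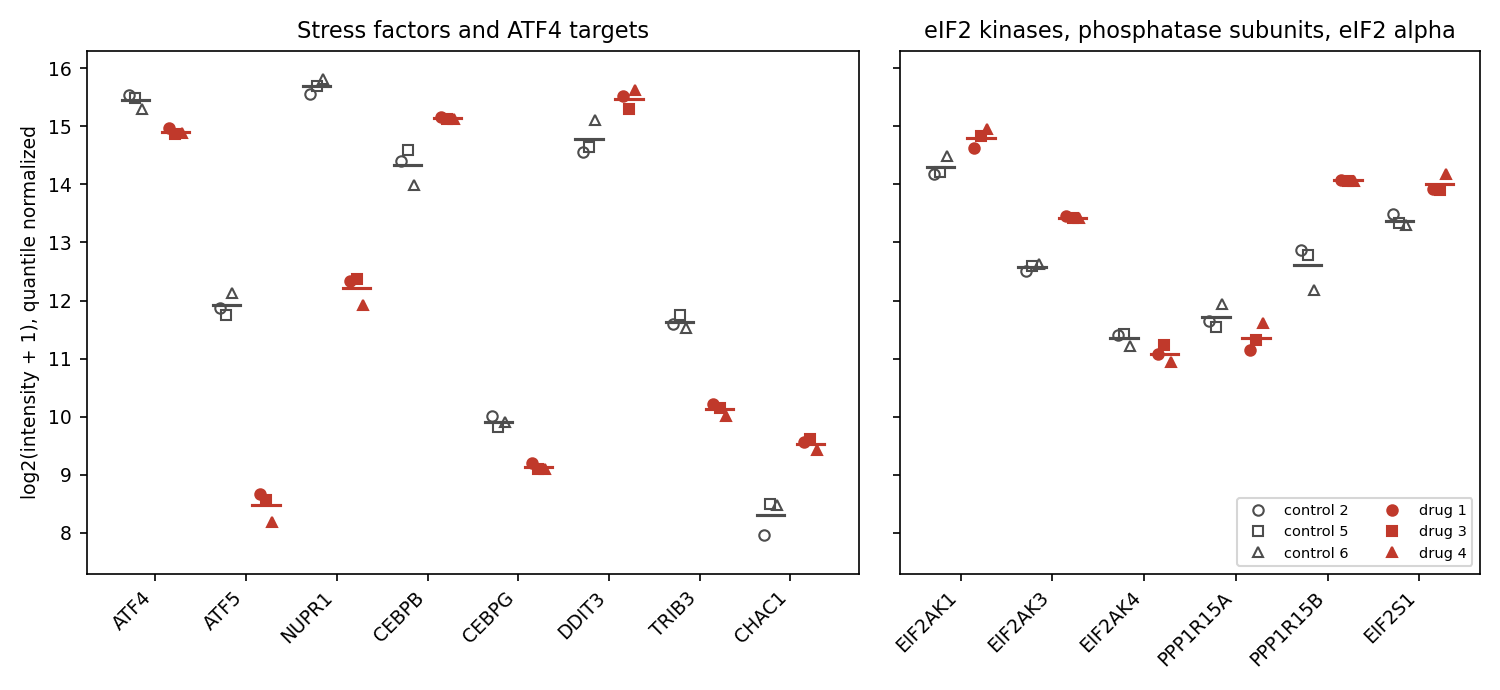
Log2(intensity + 1) of each array for the 8 stress factors and effectors (left) and the 6 eIF2 genes (right); open grey symbols are control arrays, filled red symbols drug arrays, and bars are group means of 3 arrays. ATF5, NUPR1 and TRIB3 drop clear of their control arrays, CHAC1 and PPP1R15B rise clear of theirs, and the ATF4 probe shown has a small gap. Heights of different genes are different probes and are not to be compared.

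Genes of eIF2 phosphorylation, with its target EIF2S1 among them, gave 4 rises and 0 falls among 6. Over all genes 17.6% were called higher and 17.5% lower. The largest of the 4 rises was PPP1R15B, also called CReP, the constitutive subunit that brings protein phosphatase 1 to eIF2. It read 12.87, 12.78 and 12.18 in control 2, 5 and 6 and 14.08, 14.07 and 14.06 in drug 1, 3 and 4, with the 3 drug arrays nearly identical and the control arrays spread out below them. The change was 1.46 (SE 0.193, adjusted p = 0.00113), or 2.75-fold, and 1.34 on its second probe (adjusted p = 0.00036). PPP1R15A, the stress-induced subunit GADD34, was not called, at -0.35 (SE 0.172, adjusted p = 0.183), 95% interval -0.76 to 0.052, and its arrays overlapped.

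Among the kinases, EIF2AK3 rose from 12.58 ± 0.054 to 13.43 ± 0.02 (mean ± SD, n = 3 each), a change of 0.85 (SE 0.108, adjusted p = 0.000921), and kept its call in all 15 alternatives. EIF2AK1 rose on each of its 3 probes, by 0.51 on the brightest and by 0.63 and 0.83 on the others (adjusted p = 0.0343, 0.0136 and 0.0021). On the brightest probe that call was lost without control 2, control 5, drug 3 or drug 4 (adjusted p from 0.0947 to 0.112), with values as deposited (0.0563), with 75th percentile centring (0.0538) and with median centring (0.149). EIF2AK4, the kinase for uncharged tRNA, was not called, at -0.27 (SE 0.132, adjusted p = 0.192), 95% interval -0.58 to 0.046. EIF2S1, the alpha subunit of eIF2 that is phosphorylated, rose by 0.63 (adjusted p = 0.00934) and by 0.92 on its second probe (adjusted p = 0.000816). With median centring 2 of the 6 genes were called, EIF2AK3 and PPP1R15B, and EIF2S1 was not (adjusted p = 0.0523).

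Of 16 further genes of eIF2, its exchange factor eIF2B and their regulators, 2 rose and 2 fell. EIF2B3, a subunit of eIF2B, rose by 1.70 (adjusted p = 0.000198). EIF2S2, the beta subunit of eIF2, changed by -1.18 (SE 0.151, adjusted p = 0.000976), and IMPACT, an inhibitor of EIF2AK4 activation, by -1.09 (SE 0.187, adjusted p = 0.00367). PPP1CC, a catalytic subunit of protein phosphatase 1, rose by 0.87. The median change of the list was -0.11, and 25% of it was called against 35.1% of all genes.

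In serine and one-carbon metabolism, 1 of 3 enzymes that make serine rose, 2 of 3 mitochondrial enzymes of the one-carbon steps after it fell, and the other 3 were not called. PHGDH, PSAT1 and PSPH are the successive enzymes from a glycolytic intermediate to serine. PHGDH read 11.03, 11.22 and 11.59 in control 2, 5 and 6 and 11.71, 11.55 and 11.54 in drug 1, 3 and 4. PSAT1 read 13.85, 14.11 and 13.86 in control 2, 5 and 6 and 14.82, 14.73 and 14.59 in drug 1, 3 and 4. PSPH read 12.25, 11.92 and 12.34 in control 2, 5 and 6 and 12.76, 12.39 and 12.90 in drug 1, 3 and 4. The drug arrays lay above the control arrays in PSAT1 and PSPH and overlapped them in PHGDH. PSAT1 rose, by 0.77 (SE 0.133, adjusted p = 0.00377), and by 0.64 on its second probe (adjusted p = 0.0103). With median centring PSAT1 was not called (0.58, adjusted p = 0.0710), which left 0 of the 6 genes called higher. PSPH, at 0.51 (SE 0.179, adjusted p = 0.0698), and PHGDH, at 0.32 (SE 0.167, adjusted p = 0.214), did not pass. PHGDH passed without control 6 (adjusted p = 0.0405) and PSPH without drug 3 (adjusted p = 0.0447).

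Downstream of serine, SHMT2, MTHFD2 and MTHFD1L pass the one-carbon unit through mitochondrial folate to formate. MTHFD2 and MTHFD1L fell, and SHMT2 was not called. On the brightest probe of each gene the drug arrays lay below the control arrays. MTHFD1L, the last step, read 12.93, 12.90 and 12.38 in control 2, 5 and 6 and 11.37, 11.34 and 11.51 in drug 1, 3 and 4. It fell by 1.33 on the log2 scale (SE 0.174, adjusted p = 0.00107), or 2.52-fold, under every alternative. MTHFD2, a dehydrogenase induced by ATF4, fell by 0.50 (adjusted p = 0.0332), a call lost without control 2, control 6, drug 1 or drug 3 (adjusted p from 0.0807 to 0.134). SHMT2, which splits serine, was just short of the threshold at -0.58 (SE 0.184, adjusted p = 0.051), and at -0.15 on its second probe, where the arrays overlapped (adjusted p = 0.564). It passed with values as deposited (0.0477) and with 16 added (0.0383). With 50 added to the intensity, dim probes left out, or a trended and robust variance, SHMT2 and PSPH also passed and 5 of the 6 genes were called.

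Of 13 measured partners in folate, glycine, proline and transamination, 6 rose and 2 fell. TYMS, the thymidylate enzyme that draws on the same folate pool, changed by -3.00 (SE 0.185, adjusted p = 4.9e-05). GLDC, the glycine decarboxylase of mitochondria, rose by 1.54 (SE 0.181, adjusted p = 0.000684), and ALDH4A1, a mitochondrial enzyme of proline breakdown, by 1.35 (SE 0.254, adjusted p = 0.00566). MTHFD1, the cytosolic counterpart of MTHFD2 and MTHFD1L, was the other that fell, by 0.64 on the log2 scale, and MTHFD2L, a relative of MTHFD2, rose by 0.53. In all, 61.5% of the list was called, against 35.1% of all genes.

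Of the other amino acid enzymes, 3 rose and 3 were not called. ASNS, asparagine synthetase and a standard readout of ATF4, read 12.90, 13.30 and 13.16 in control 2, 5 and 6 and 13.58, 13.36 and 13.02 in drug 1, 3 and 4. The groups overlapped, and the change of 0.20 (SE 0.183, adjusted p = 0.498) had a 95% interval -0.23 to 0.63, which leaves out a 2-fold rise. CTH, which makes cysteine from cystathionine, read 7.75, 8.18 and 8.08 in control 2, 5 and 6 and 9.11, 9.15 and 9.26 in drug 1, 3 and 4. GPT2, a mitochondrial alanine transaminase, read 9.28, 9.54 and 9.62 in control 2, 5 and 6 and 10.66, 10.72 and 10.65 in drug 1, 3 and 4. Both were higher in every drug array than in any control array.

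CTH rose by 1.17 (SE 0.147, adjusted p = 0.000904) and GPT2 by 1.20 (SE 0.131, adjusted p = 0.000503), or 2.25-fold and 2.29-fold, and both kept their calls in all 15 alternatives. PYCR1, the last enzyme of proline synthesis, rose by 0.76 (SE 0.181, adjusted p = 0.0166), a call lost without drug 1 or drug 3 (adjusted p = 0.0594 and 0.0645), with values as deposited (0.0667) and with median centring (0.147). ALDH18A1, the first enzyme of that branch, was not called at -0.17 (SE 0.131, adjusted p = 0.424). CBS, which precedes CTH in cysteine synthesis, was at 0.088 (SE 0.163, adjusted p = 0.761), 95% interval -0.30 to 0.47; its probe may not tell it from the near-identical copy CBSL. STC2, a secreted glycoprotein induced by ATF4, was lower in each drug array but not called, at -0.48 (SE 0.168, adjusted p = 0.0704), and passed without control 6 (adjusted p = 0.0149), with 50 added (0.0486), with dim probes left out (0.0452) and with a trended and robust variance (0.0417). Its second probe gave -0.32 (adjusted p = 0.386), with overlapping arrays.

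Other genes that ATF4 is known to induce were also divided, with 5 of 19 higher and 4 lower. ATF3, a repressor of the same family, rose by 1.83 (SE 0.125, adjusted p = 7.48e-05). CEBPD, a further C/EBP factor, changed by -2.90 (SE 0.141, adjusted p = 2.3e-05) and JDP2, a repressor of AP-1, by -1.93 (SE 0.153, adjusted p = 0.000127). GDF15, a secreted stress cytokine, rose by 1.43 and XPOT, which exports tRNA from the nucleus, changed by -1.13. SESN2 and DDIT4, inhibitors of mTORC1, were not called, at 0.18 and 0.38. Of 9 amino acid transporters linked to ATF4, SLC7A5 rose, by 1.51, and SLC7A11, SLC38A2 and SLC7A1 changed by -2.11, -0.61 and -0.44, while the remaining 5 were not called. The shares called, 47.4% and 44.4%, stand beside 35.1% of all genes.

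The cytosolic tRNA synthetases, which load each amino acid onto its tRNA, mostly showed no detected change. Of 19 measured, 3 rose, 1 fell and 15 were not called. The share called was 21.1%, against 35.1% of all genes and 48.3% of the 4584 genes with the highest signal, which include 17 of the 19. The median change was 0.040. Drug and control arrays did not overlap for 9 of the 19, 5 above and 4 below, where all genes gave 47%. All 15 genes that were not called had a 95% interval inside 2-fold in both directions, with bounds from -0.69 to 0.73 on the log2 scale.

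**Figure D3:**
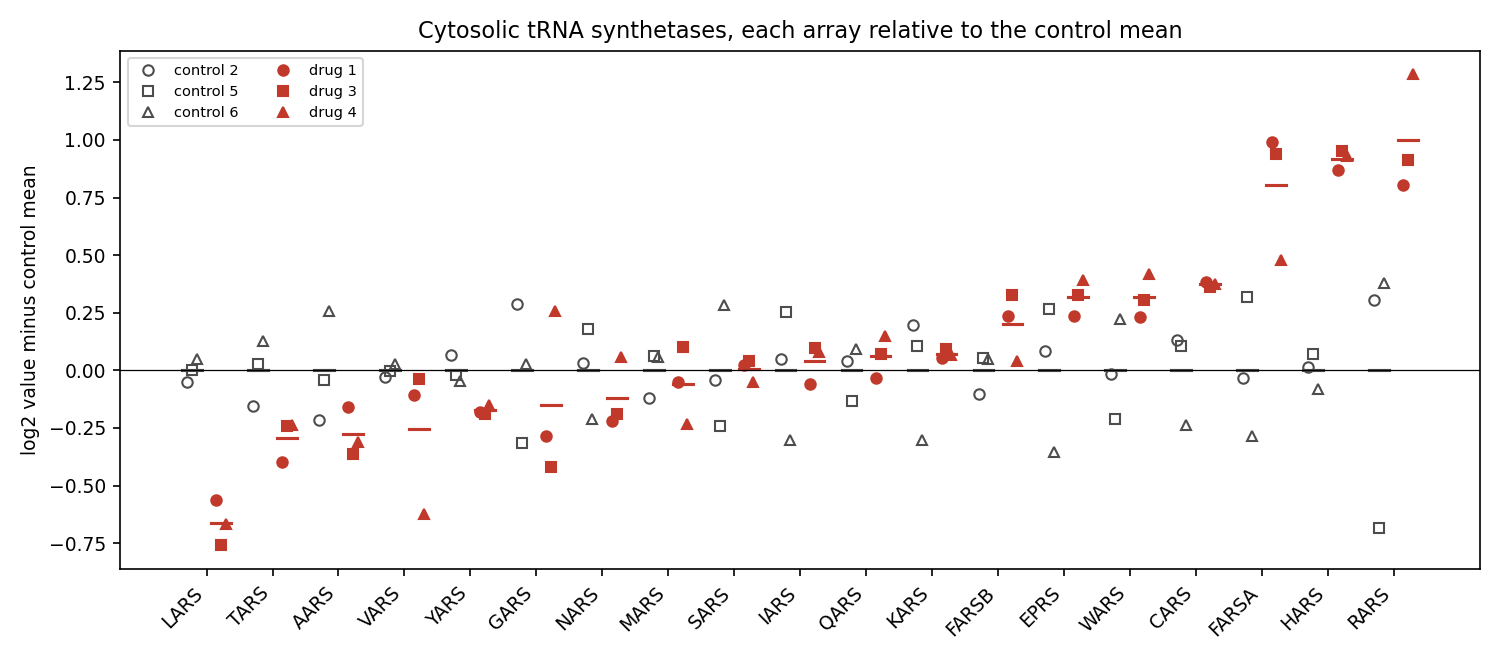
Each of the 19 measured cytosolic synthetases in each array, as log2 value minus the control mean of that gene; open grey symbols are control arrays, filled red symbols drug arrays, and bars are group means. Most red bars lie within 0.4 of the zero line, LARS lies below it, FARSA, HARS and RARS above it, and control 5 is the low array of RARS.

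HARS, the histidine enzyme, gave the clearest rise, from 13.17 ± 0.077 to 14.08 ± 0.042 (mean ± SD, n = 3 each), a change of 0.92 (SE 0.111, adjusted p = 0.000777) that held in every alternative. RARS, the arginine enzyme, read 14.78, 13.79 and 14.86 in control 2, 5 and 6 and 15.28, 15.39 and 15.76 in drug 1, 3 and 4. Control 5 lay about 1 log2 unit below the other control arrays of RARS, and the change was 1.00 (SE 0.297, adjusted p = 0.0387). Its second probe, where control 5 did not stand apart, read 14.51, 14.47 and 14.72 in control 2, 5 and 6 and 15.24, 15.18 and 15.38 in drug 1, 3 and 4, with a change of 0.70 (SE 0.127, adjusted p = 0.00486). Without control 5 the brighter probe gave 0.66 and passed, and without drug 1, drug 3 or drug 4 it did not (adjusted p from 0.0704 to 0.122). It also missed with values as deposited (0.0709), median centring (0.0646) and 75th percentile centring (0.0537).

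FARSA, the alpha subunit of the phenylalanine enzyme, rose by 0.80 (SE 0.207, adjusted p = 0.0222), whereas its beta subunit FARSB was not called, at 0.20 (SE 0.128, adjusted p = 0.313). The FARSA call was lost without control 2, control 6, drug 1 or drug 3 (adjusted p from 0.0548 to 0.0834), with values as deposited (0.0651), with 75th percentile centring (0.0634) and with median centring (0.170). LARS, the leucine enzyme, which also takes part in leucine sensing for mTORC1, fell from 14.42 ± 0.049 to 13.76 ± 0.099 (mean ± SD, n = 3 each), a change of -0.66 (SE 0.115, adjusted p = 0.00395) that held in every alternative. Without drug 1, or without drug 3, 2 of the 19 synthetases were called, LARS and HARS.

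Second probes added calls for a pair of synthetases. TARS, for threonine, read 14.60, 14.78 and 14.88 in control 2, 5 and 6 and 14.35, 14.51 and 14.51 in drug 1, 3 and 4 on its brighter probe, a change of -0.29 (SE 0.128, adjusted p = 0.14). Its other probe read 14.64, 14.48 and 14.51 in control 2, 5 and 6 and 13.93, 13.88 and 14.06 in drug 1, 3 and 4 and was called, at -0.59 (adjusted p = 0.00769). On both TARS probes each drug array lay below each control array. WARS, for tryptophan and inducible by interferon, read 11.08, 10.88 and 11.32 in control 2, 5 and 6 and 11.33, 11.40 and 11.51 in drug 1, 3 and 4 on its brighter probe, a change of 0.32 (SE 0.146, adjusted p = 0.157). Its other probe read 10.32, 10.34 and 10.36 in control 2, 5 and 6 and 10.92, 10.77 and 10.88 in drug 1, 3 and 4 and was called, at 0.52 (adjusted p = 0.01). Within each of these genes the probes had the same sign. MARS, for methionine, gave -0.06 and 0.13 on its probes, neither called, with overlapping arrays on both. Over the 12 genes with several probes, 9 had the same call on each and 0 had probes called in opposite directions.

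The remaining synthetases lay between -0.28 for AARS and 0.37 for CARS. CARS, for cysteine, was higher in each drug array yet did not pass (adjusted p = 0.0829), and YARS and VARS, for tyrosine and valine, were lower in each drug array at -0.17 and -0.26. EPRS, which charges both glutamate and proline, was at 0.32, GARS at -0.15 and NARS at -0.12. KARS, QARS, IARS and SARS were at 0.069, 0.064, 0.04 and 0.00498, and their sign depended on the scaling or on the arrays used. Synthetases fall into classes I and II by the fold of their catalytic domain: 2 of 9 class I and 2 of 9 class II genes were called, with medians of 0.040 and 0.0050. Of the 7 measured enzymes of the multisynthetase complex, RARS rose and LARS fell. Of its 3 scaffold proteins, AIMP1 and AIMP2 changed by -0.53 and -0.39 (adjusted p = 0.0165 and 0.0385) and EEF1E1 was not called, at -0.18.

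The mitochondrial synthetases are mostly encoded by separate genes, and 7 of 16 (43.8%) were called, 3 higher and 4 lower, with a median change of -0.34, where 35.1% of all genes were called. YARS2 changed by -1.30 (SE 0.148, adjusted p = 0.000589) and CARS2 by -1.05 (SE 0.126, adjusted p = 0.00074), while MARS2 rose by 1.22 (SE 0.254, adjusted p = 0.00903). For 13 amino acids the measured cytosolic and mitochondrial genes differ in name only by a final 2. Both genes were called for 1 of these, leucine. There both fell, LARS by 0.66 and LARS2, dim in both groups, by 0.76 on the log2 scale. Within those 13, the mitochondrial gene alone was called for 5, the cytosolic gene alone for 2, and neither for 5. Phenylalanine, glutamate and proline, whose genes are named differently, were not among the 13. For phenylalanine FARSA rose and FARS2 was not called, at -0.43. EPRS was not called, nor was EARS2, for glutamate, at -0.36, while PARS2, for proline, rose by 0.75. HARS and HARS2 had changes of 0.92 and -0.45, the second not called.

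The direction of small changes here depended on how arrays were scaled to each other. With the values as deposited or centred on the 75th percentile, the median of all genes moved to 0.20 and 0.24, while that of the 4584 genes with the highest signal moved to -0.046 and -0.0062. With median centring those genes moved to -0.18 and the median of the 46 genes to -0.13. The 14 higher and 8 lower calls became 10 and 9, 11 and 8, and 6 and 8 under deposited values, 75th percentile and median centring, so that the higher calls went from 63.6% to 52.6%, 57.9% and 42.9%. The synthetase calls became 1 higher and 1 lower under each of the 3, HARS and LARS. ATF5, NUPR1, TRIB3, CEBPG, MTHFD1L and LARS stayed called lower, and CHAC1, EIF2AK3, PPP1R15B, CTH, GPT2 and HARS higher, under all 15 alternatives. Of these, TRIB3 and PPP1R15B had 2 probes each. For the others, with 1 probe, the choice of probe could not alter the change.

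**Figure D4:**
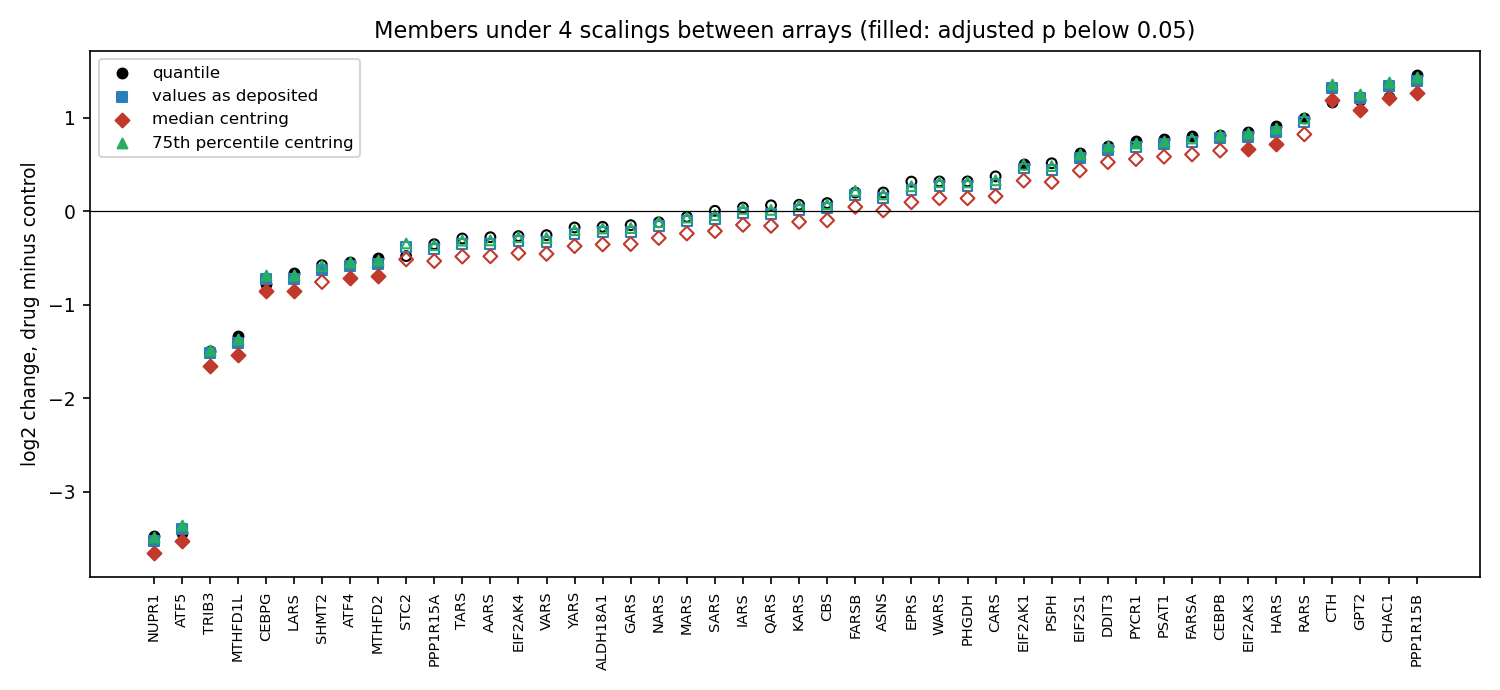
Log2 change of each of the 46 genes under quantile normalization, values as deposited, median centring and 75th percentile centring; filled symbols passed an adjusted p of 0.05. Median centring lies below the other scalings for nearly every gene, and the open symbols in the middle change sign, whereas the outermost genes at either end do not.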

How the data were processed

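Amino allyl aRNA from 6 flasks was labelled with Cy5 and hybridised to 1-colour arrays, per the labels' protocols. The deposited intensity values are on a linear scale, for 31741 probes; the authors' background correction and scaling were not given in the sources used here. Some deposited values lie below 0 (462 on control 2, 968 on control 5 and 1 on drug 4).

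The arrays' log2 medians spanned 0.34, so intensities were quantile normalized, floored at 0, increased by 1 and log2 transformed. Groups came from sample titles. Platform annotation named 1 gene for 24740 probes, several for 977 and none for 6024; symbols were updated through RefSeq names (GRCh38.p14), 1484 of 18336 genes in all. The probe with the highest mean over the 6 arrays stood for each gene. Limma 3.58.1 in R 4.3.3 (lmFit, eBayes, no covariate, two-sided) compared the groups, with Benjamini-Hochberg adjustment over all probes. The number of arrays limits the precision, and p-values rest on the spread between 3 flasks a group. The limma step alone was tested, on simulated arrays with independent noise and few changed probes. The scaling between arrays was not part of that test. Alternatives covered scaling, the added constant, dim probes, the variance model, the choice of probe and each array left out. The choice of probe could alter the change only of genes with several probes.

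The genes and lists were chosen with earlier results of these data known. Values per array are given for called genes with at least 2-fold change, for 8 genes set by name (ATF4, DDIT3, TRIB3, CHAC1, ASNS, PHGDH, PSAT1 and PSPH) and for genes whose probes differ; from each further list, up to 3 called genes with the largest changes. Beyond that rule, PPP1CC, MTHFD1, MTHFD2L, GDF15, XPOT, SESN2, DDIT4, SLC7A1, EEF1E1, LARS2 and HARS2 were named after their values were seen. So were FARS2, EARS2, PARS2, SYP and NEUROD1, and in the closing section HSPA5 and GLUL.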

Additional observations from a re-analysis of the deposited data

How the results depend on the processing

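Across 46 genes and 15 alternatives, 613 of 690 comparisons kept direction and side of the threshold, 38 lost a call, 18 gained one and 21 changed sign. These counts include comparisons that could not differ, because only 12 of the 46 genes had several probes. For the others the second brightest probe was the same probe, and averaging probes left the log2 change as it was. Of the 22 called genes, 12 kept their call under every alternative. The count over the 46 genes was 22, became 14 with median centring, and ran from 17 to 22 when 1 array was left out. Synthetase calls, 4 in the comparison above, were 2 with values as deposited, with median centring and with 75th percentile centring, and 2 to 4 with an array left out. Calls among the eIF2 genes went from 4 to 2 with median centring. Calls in serine and one-carbon metabolism went from 3 to 5 with 50 added, with dim probes left out and with a trended and robust variance. The cause was not tested.

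ATF4 alone among called genes changed sign, to 0.016 on its second probe. The other sign changes were in genes not called. With deposited values IARS was at -0.015, QARS at -0.026 and SARS at -0.082; with median centring CBS was at -0.097, IARS at -0.15, KARS at -0.11, QARS at -0.16 and SARS at -0.21; with 75th percentile centring SARS was at -0.041. MARS was at 0.035 with its probes averaged and 0.13 on its second probe. With an array left out, SARS ran from -0.12 to 0.15, QARS from -0.0022 to 0.11, IARS from -0.11 to 0.17, KARS from -0.080 to 0.17, CBS from -0.041 to 0.18 and MARS from -0.14 to 0.026. No paired analysis was possible because the groups share no replicate number. Signal over background could not be judged per probe, since only processed intensities were used.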

Other observations

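Of 14 genes measured on a list of endoplasmic reticulum chaperones and the unfolded protein response, 6 were called higher and 1 lower, where all genes gave 17.6% and 17.5%, with a median log2 change of 0.37. HYOU1 and CALR, chaperones of the endoplasmic reticulum, rose by 1.28 and 1.24 (adjusted p = 0.000221 and 0.000646) and HSPA5, the chaperone BiP, by 1.09 (adjusted p = 0.000749). XBP1, the factor that IRE1 activates by splicing, changed by -1.64 (adjusted p = 0.0002). HSP90B1 had no probe that named it alone and was not analysed here. The difference between this list and other genes was not tested, and its counts under the other scalings were not computed.

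GLUL, which makes glutamine, was not called, with 4.22 on control 5 and 2.54 on drug 1 against 11.09 to 13.58 on the other 4 arrays, so its brightest probe was low on 1 array of each group.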
